A study of Mus musculus with 18 samples.

Results

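The 9 genes described here mark amacrine and horizontal cells and were followed through detached and reattaching mouse retina: Gad1, Gad2, Slc32a1, Slc6a9, Calb1, Calb2, Pax6, Tfap2b and Lhx1. They were chosen by symbol, as every probe set that the array's annotation gives to one of these names alone, and they make up 9 of the 12393 genes and 18 of the 22626 probe sets measured. Balb/cJ retinas were detached by a subretinal injection of 1 uL and profiled on Affymetrix arrays. The INS37217 groups received 10 uM INS37217 in saline and were sampled at 2 h, 24 h and 7 d. The saline groups received saline alone and were sampled at the same 3 times. By the study's own account the retina is back in place but misfolded by 24 h, and the folds are gone by 7 d. INS37217, also called denufosol, is an agonist of the P2Y2 receptor. All 6 groups share the detachment itself, each array was hybridised with RNA pooled from more than 5 retinas, each group has 3 arrays, and no retina without an injection was analysed here.

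Amacrine cells are inhibitory interneurons of the inner retina that shape the signals passing from bipolar to ganglion cells, and horizontal cells feed back on photoreceptor terminals in the outer retina. Most of them release GABA or glycine, which requires an enzyme to make GABA, a transporter to load either transmitter into vesicles and transporters to take it back up. Not every gene belongs to these cells alone: Pax6 and Calb2 are also used by ganglion cells, and Pax6 also by the lens and the ciliary body. The retina was sampled whole, so fewer cells of a type and less RNA per cell cannot be told apart.

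Each gene was read by its probe set of highest mean, and differences are log2 values, INS37217 minus saline or later minus earlier. None of the 9 genes passed between INS37217 and saline retinas at any time at an adjusted p under 0.05 (limma, adjusted by Benjamini and Hochberg over all 22626 probe sets). At 7 d 8 of the 9 were lower in INS37217 retinas than in saline retinas, with differences of -0.23 to -0.11, and Pax6 had equal means; 58.2% of all genes were lower there. In the saline retinas Lhx1 fell at 24 h, where 7.21% of all genes passed, and Gad2 rose at 7 d, where 5.13% did, both relative to 2 h. Leaving out 1 array ended Lhx1's call in 1 case, saline 2 h replicate 2, and Gad2's in 4. Those 4 were replicates 2 and 3 of saline at 2 h and of saline at 7 d. Both calls compare with the saline 2 h arrays, which also stood apart in other measures, and the part of this in the calls was not tested. With the replicate number in the model, a second probe set of Gad1 and one of Pax6 passed as higher in INS37217 than in saline retinas at 2 h, and neither did on replicates 2 and 3 alone. On those arrays Gad2 passed there, by 0.625 (limma adjusted p = 0.0133), as did Pax6 probe set 1425960_s_at, by 0.66 (0.0266). Of 22626 probe sets 304 passed in that fit. On the arrays 7 of the 9 genes had a mean above the median probe set, and Gad2 and Lhx1 lay below it, so these 2 were read from dim signals.

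Arrays of replicate 1 stood apart, and this touches the values of several of the 9 genes. The difference of replicate 1 from the mean of replicates 2 and 3 was negative in all 6 groups for Pax6 (-1.10 to -0.57 on the log2 scale), Calb1 (-1.04 to -0.41) and Tfap2b (-0.48 to -0.05). It was positive in all 6 for Calb2 (0.08 to 0.41) and Lhx1 (0.03 to 0.56). Of all genes, 27.2% were lower and 30.7% higher on replicate 1 in all 6 groups. The labels do not say what the numbers stand for, so results are given as group means and, where the call differs, with the replicate number in the model as a block. Groups were taken from the titles, since 8 INS37217 arrays have a source name of saline only, and saline 7 d replicate 2 has one of 2 h. That array correlated best with an INS37217 array of 7 d (r = 0.9945 over all probe sets), and at most at 0.979 with saline arrays of 2 h.

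**Figure D1:**
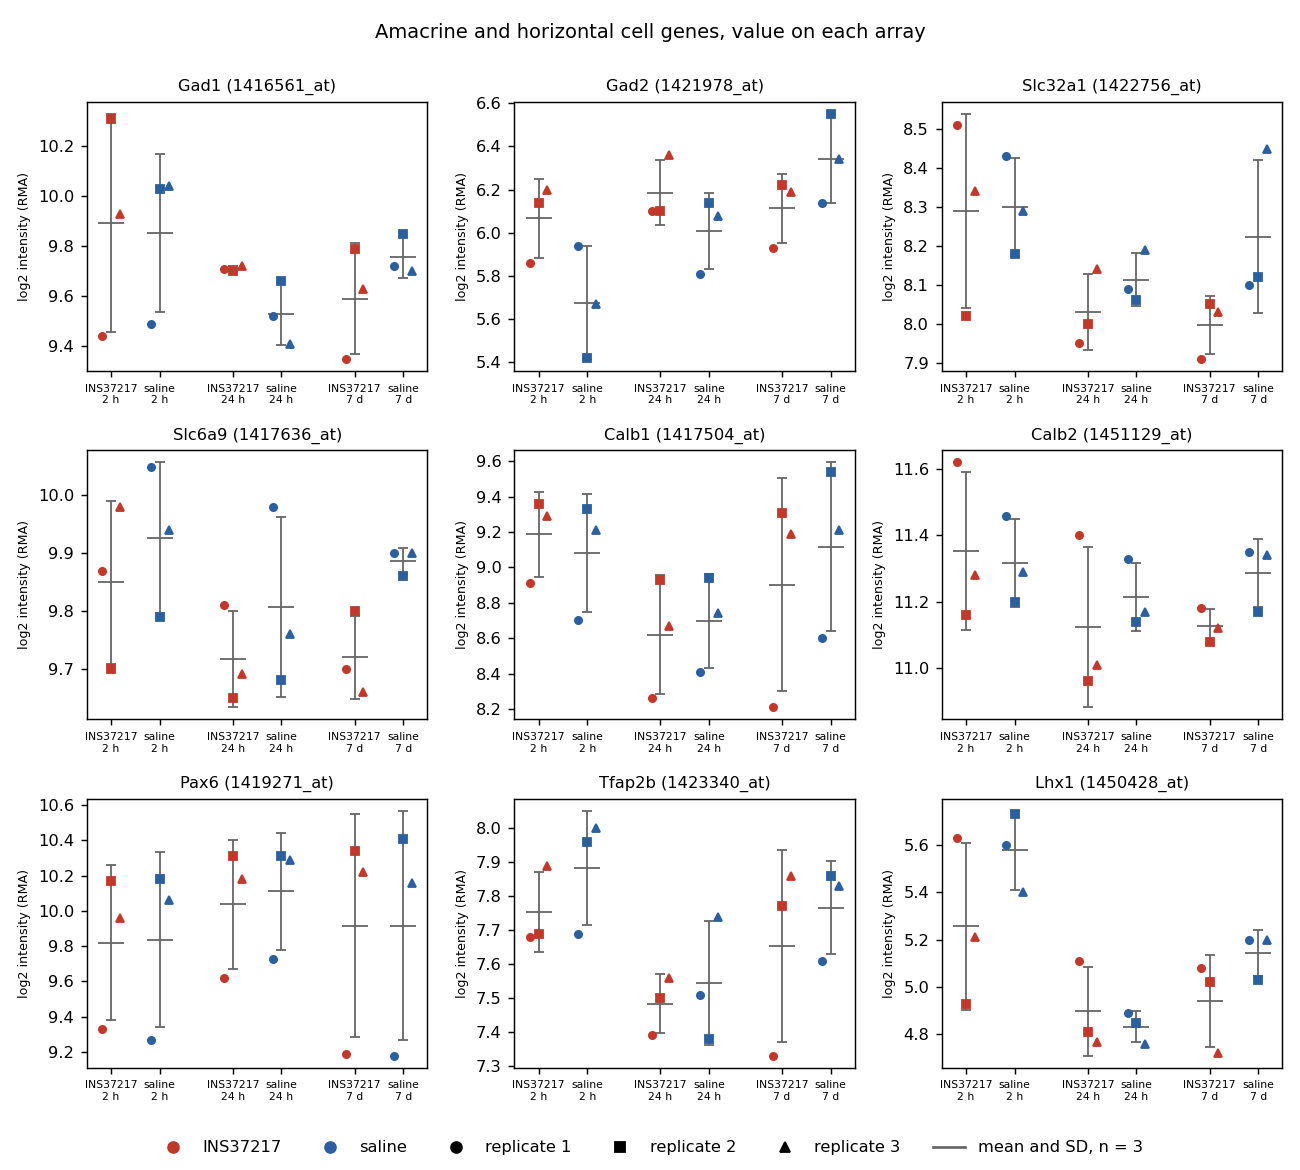
Log2 intensity of each of the 9 genes on all 18 arrays, by group (points, shaped by replicate number, with the mean and SD of the 3 arrays). Each panel has its own vertical scale. The replicate 1 points of Pax6 and Calb1 sit below the other 2 in every group, and Lhx1 has its highest mean in the saline 2 h group.

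The genes of transmitter synthesis and transport come first. Gad1 and Gad2 encode the 2 forms of glutamate decarboxylase, which makes GABA from glutamate. Slc32a1 encodes the vesicular transporter for GABA and glycine, and Slc6a9 the glycine transporter GlyT1, which in the retina takes glycine into amacrine cells. RefSeq windows of 250 bases before to 50 after the start (GRCm38.p6) are printed for the 3 genes with a probe set that passed the test in the fit without a block, Gad2 and Gad1 here and Lhx1 with the other transcription factors.

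Gad2 was read by 1 probe set, 1421978_at. Its log2 values at 2 h were 5.86, 6.14 and 6.20 in INS37217 retinas, against 5.94, 5.42 and 5.67 in saline retinas. At 24 h they were 6.10, 6.10 and 6.36 in INS37217 retinas, against 5.81, 6.14 and 6.08 in saline retinas. At 7 d they were 5.93, 6.22 and 6.19 in INS37217 retinas, against 6.14, 6.55 and 6.34 in saline retinas. The saline group was the lowest of the 6 at 2 h and the highest at 7 d, while the INS37217 group means were 6.07, 6.19 and 6.11 over the 3 times. Saline retinas at 7 d exceeded those at 2 h by 0.67 ± 0.16 (log2 difference ± SE, n = 3 each), with limma adjusted p = 0.0189, and the ranges of the 3 arrays did not overlap. Of all genes, 5.13% passed in that comparison and 2.21% rose, and of the 9 members 1 did, against 2 with the block and 21% of all genes. In limma, Gad2's call was lost without saline 2 h replicate 2 (adjusted p = 0.112) or 3 (0.0658), and without saline 7 d replicate 2 (0.101) or 3 (0.0715). With only the arrays of the 2 groups in the fit the adjusted p was 0.158. In INS37217 retinas the same interval gave 0.05 ± 0.16 (limma adjusted p = 0.955), and the difference between the injections in this change, -0.62 ± 0.22, did not pass (adjusted p = 1, and 0.164 with the replicate block).

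The Gad2 window lies on chromosome 2 (chr2:22622077-22622376, plus strand). Capitals mark matches, on either strand, to 5 motifs: GGGCGG (the GC box), GCCNNNGGC (bound by AP-2 factors such as Tfap2b), TAATTA (bound by LIM homeodomain factors such as Lhx1), TATAAA and CCAAT. Here they are 2 GCCNNNGGC and 2 CCAAT.
Gad2: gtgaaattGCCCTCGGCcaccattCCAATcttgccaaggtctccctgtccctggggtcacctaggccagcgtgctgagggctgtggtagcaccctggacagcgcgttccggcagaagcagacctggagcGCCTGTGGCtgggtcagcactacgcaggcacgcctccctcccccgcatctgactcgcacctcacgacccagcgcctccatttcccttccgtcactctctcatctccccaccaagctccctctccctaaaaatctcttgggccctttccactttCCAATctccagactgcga
A match describes the letters and is not evidence of a bound site. Of 32851 windows of this length, GCCNNNGGC was found in 16.6%, CCAAT in 37.4%, GGGCGG in 35.7%, TATAAA in 13.6% and TAATTA in 5.29%. Windows were listed for 7 of the 9 genes, with 3 starts for Slc6a9 and 2 for Pax6, which makes 10. GGGCGG was found in 2 of these 10 windows, GCCNNNGGC in 2, TATAAA in 1, CCAAT in 3 and TAATTA in 0, and no base lay in 2 matches at once.

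Gad1 has 2 probe sets, and they did not read alike. The brighter, 1416561_at, read 9.44, 10.31 and 9.93 in INS37217 retinas at 2 h, against 9.49, 10.03 and 10.04 in saline retinas. At 24 h it read 9.71, 9.70 and 9.72 in INS37217 retinas, against 9.52, 9.66 and 9.41 in saline retinas, and at 7 d 9.35, 9.79 and 9.63, against 9.72, 9.85 and 9.70. The ranges of the injections were apart only at 24 h, where the difference was 0.18 ± 0.19 (limma adjusted p = 1). No comparison of this probe set passed over all arrays, with or without the block.

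The other probe set, 1416562_at, read 9.41, 9.42 and 9.48 in INS37217 retinas at 2 h, against 8.62, 8.93 and 9.14 in saline retinas. From 24 h on it stayed between 9.19 and 9.78 in both injections. The low group was thus saline at 2 h, and the INS37217 arrays at 2 h lay in the range of the later ones. Saline retinas at 7 d exceeded those at 2 h by 0.70 ± 0.17 (limma adjusted p = 0.0203), where 5.44% of all probe sets passed, and those at 24 h did so by 0.54 ± 0.17 (adjusted p = 0.0623, and 0.000207 with the replicate block). INS37217 retinas at 2 h were above saline retinas by 0.54 ± 0.17 with ranges apart (limma adjusted p = 0.641, and 0.00291 with the block). On replicates 2 and 3 alone this difference was 0.41 (limma adjusted p = 0.115, and 0.0515 with the block). In limma, the call at 7 d was lost without saline 2 h replicate 1 (adjusted p = 0.0906) or 2 (0.0644), without saline 7 d replicate 2 (0.0918) or 3 (0.114), and with only the 2 groups in the fit (0.164).

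The Gad1 window lies on chromosome 2 (chr2:70561879-70562178, plus strand) and holds 1 match to GGGCGG and 1 to TATAAA, both on the other strand, in capitals.
Gad1: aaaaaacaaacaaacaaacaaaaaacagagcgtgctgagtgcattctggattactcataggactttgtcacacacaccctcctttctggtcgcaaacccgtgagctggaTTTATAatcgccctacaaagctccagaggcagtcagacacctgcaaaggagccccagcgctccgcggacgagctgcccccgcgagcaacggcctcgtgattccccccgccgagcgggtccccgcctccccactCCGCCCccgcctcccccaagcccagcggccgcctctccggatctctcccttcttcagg

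Slc32a1 (1422756_at) read 8.51, 8.02 and 8.34 in INS37217 retinas at 2 h, against 8.43, 8.18 and 8.29 in saline retinas. At 24 h it read 7.95, 8.00 and 8.14, against 8.09, 8.06 and 8.19. At 7 d it read 7.91, 8.05 and 8.03 in INS37217 retinas, against 8.10, 8.12 and 8.45 in saline retinas. All 3 INS37217 arrays at 7 d were below all 3 saline arrays, and at 2 h and 24 h the ranges overlapped.

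Slc6a9 (1417636_at) read 9.70, 9.80 and 9.66 in INS37217 retinas at 7 d, against 9.90, 9.86 and 9.90 in saline retinas. At 2 h it read 9.87, 9.70 and 9.98 in INS37217 retinas, against 10.05, 9.79 and 9.94 in saline retinas, and at 24 h 9.81, 9.65 and 9.69, against 9.98, 9.68 and 9.76. Here too the 7 d ranges were apart and those at 2 h and 24 h overlapped. Neither transporter passed in any comparison, with or without the block. Their dimmer probe sets, 1456457_at for Slc32a1 and 1431812_a_at for Slc6a9, differed at 7 d by 0.02 ± 0.17 and 0.01 ± 0.14, with overlapping ranges.

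The calcium-binding proteins were read by Calb1, which encodes calbindin, the usual stain for mouse horizontal cells and some amacrine cells, and by Calb2, which encodes calretinin, found in amacrine and ganglion cells. Calb1 (1417504_at) read 8.91, 9.36 and 9.29 in INS37217 retinas at 2 h, against 8.70, 9.33 and 9.21 in saline retinas. At 24 h it read 8.26, 8.93 and 8.67 in INS37217 retinas, against 8.41, 8.94 and 8.74 in saline retinas. At 7 d it read 8.21, 9.31 and 9.19 in INS37217 retinas, against 8.60, 9.54 and 9.21 in saline retinas. Both injections thus had their lowest mean at 24 h, within each replicate number except INS37217 replicate 1. Without the block no comparison of Calb1 passed. With the block it fell at 24 h relative to 2 h in INS37217 retinas (by 0.57 on the log2 scale, limma adjusted p = 0.00104) and in saline retinas (by 0.38, adjusted p = 0.0162), and it rose at 7 d relative to 24 h in saline retinas (0.42, adjusted p = 0.0287).

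In INS37217 retinas Calb1 differed by 0.28 ± 0.30 at 7 d relative to 24 h (limma adjusted p = 1, and 0.172 with the block). The difference between the injections in this change was -0.14 ± 0.42 (limma adjusted p = 0.978 with the block). The dim probe set 1448738_at, at 3.49 to 3.98 on all arrays, passed in no comparison. Calb2 (1451129_at) ranged from 10.96 to 11.62 over the 18 arrays. Its means over the times 2 h, 24 h and 7 d were 11.35, 11.12 and 11.13 in INS37217 retinas, against 11.32, 11.21 and 11.29 in saline retinas, and no comparison passed.

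The transcription factors are Pax6, a paired and homeodomain factor kept on in amacrine, horizontal and ganglion cells, Tfap2b, an AP-2 factor of amacrine and horizontal cells, and Lhx1, a LIM homeodomain factor that in the mature mouse retina marks horizontal cells. Lhx1 varied most over the 6 groups among the 9 genes, each read by its probe set of highest mean, with group means spanning 0.74. The dimmer Lhx1 probe set spanned 0.27, while 1452526_a_at and 1425960_s_at of Pax6 spanned 0.91 and 1.50. Lhx1 probe set 1450428_at read 5.63, 4.93 and 5.21 in INS37217 retinas at 2 h, against 5.60, 5.73 and 5.40 in saline retinas. At 24 h it read 5.11, 4.81 and 4.77, against 4.89, 4.85 and 4.76, and at 7 d 5.08, 5.02 and 4.72, against 5.20, 5.03 and 5.20. The 3 saline arrays at 2 h lay above all saline arrays of 24 h and 7 d, and those of 24 h lay below those of 7 d.

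In saline retinas Lhx1 fell by 0.74 ± 0.16 on the log2 scale at 24 h relative to 2 h, with limma adjusted p = 0.00905. Its signal was dim, and no detection call was used here, so whether it lay above background is not known. It was the only member of 9 to pass there, where 7.21% of all genes passed and 3.2% fell. Without saline 2 h replicate 2 the difference was -0.67 (limma adjusted p = 0.0537). At 7 d relative to 2 h the saline retinas differed by -0.43 ± 0.16 (limma adjusted p = 0.161, and 0.015 with the block). INS37217 retinas at 24 h differed from 2 h by -0.36 ± 0.16 (limma adjusted p = 0.267, and 0.0418 with the block), and the difference between the injections in this change was 0.38 ± 0.23 (adjusted p = 1). The dimmer probe set of Lhx1, 1421951_at, gave -0.22 ± 0.12 at 24 h relative to 2 h in saline retinas, with ranges apart (limma adjusted p = 0.333).

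The Lhx1 window lies on chromosome 11 (chr11:84525485-84525784, minus strand) and holds 1 match to CCAAT, on the other strand, in capitals, and none to the other 4 motifs.
Lhx1: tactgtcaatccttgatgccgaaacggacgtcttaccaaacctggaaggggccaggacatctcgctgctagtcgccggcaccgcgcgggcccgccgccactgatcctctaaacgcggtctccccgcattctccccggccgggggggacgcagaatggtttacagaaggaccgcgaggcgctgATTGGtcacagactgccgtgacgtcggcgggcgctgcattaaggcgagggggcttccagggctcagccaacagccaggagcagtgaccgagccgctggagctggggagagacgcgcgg

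The 5 genes whose 6 group means, centred on their own mean, lay closest to those of Lhx1 were Ebf1, Ablim1, Znrf1, Gnao1 and Castor2. Their root mean square difference from Lhx1 was 0.06, 0.06, 0.06, 0.07 and 0.07 on the log2 scale over the 6 groups. Like Lhx1, each was highest in saline retinas at 2 h, which follows from how they were picked and is no separate result. Ebf1 averaged 6.48 in INS37217 retinas and 6.68 in saline retinas at 2 h, and 6.10 in both at 24 h. At 7 d it averaged 6.22 in INS37217 retinas and 6.35 in saline retinas. Ebf1, a helix-loop-helix factor, is itself in the list of further amacrine and horizontal cell factors described below.

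Tfap2b (1423340_at) read 7.68, 7.69 and 7.89 in INS37217 retinas at 2 h, against 7.69, 7.96 and 8.00 in saline retinas. At 24 h it read 7.39, 7.50 and 7.56, against 7.51, 7.38 and 7.74, and at 7 d 7.33, 7.77 and 7.86, against 7.61, 7.86 and 7.83. The 24 h mean was the lowest of the 3 times in each injection. Relative to 2 h it differed by -0.27 ± 0.15 in INS37217 retinas, with ranges apart (limma adjusted p = 0.4, and 0.0643 with the block), and by -0.34 ± 0.15 in saline retinas (limma adjusted p = 0.2, and 0.0165 with the block).

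Pax6 is read by 5 probe sets. The brightest, 1419271_at, read 9.33, 10.17 and 9.96 in INS37217 retinas at 2 h, against 9.27, 10.18 and 10.06 in saline retinas. At 24 h it read 9.62, 10.31 and 10.18, against 9.73, 10.31 and 10.29, and at 7 d 9.19, 10.34 and 10.22, against 9.18, 10.41 and 10.16. Replicate 1 was the lowest in every group, and no comparison passed with or without the block. The dim probe sets 1456342_at and 1437816_at, at 4.34 to 5.97, also passed in none over all arrays. On replicates 2 and 3 alone both passed as lower in INS37217 retinas than at 2 h. For 1437816_at this was at 7 d (-0.375, limma adjusted p = 0.0421). For 1456342_at it was only with the block, at 24 h (-0.43, limma adjusted p = 0.0339) and 7 d (-0.41, 0.0416).

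Another pair of Pax6 probe sets was low at 2 h. The first of them, 1452526_a_at, averaged 8.62, 8.92 and 9.05 over the 3 times in INS37217 retinas, against 8.14, 8.95 and 8.97 in saline retinas. The other, 1425960_s_at, averaged 6.75, 7.29 and 7.51 in INS37217 retinas, against 6.06, 7.56 and 7.55 in saline retinas. The suffix _s_at marks a probe set whose probes match several transcripts. In the fit without the block none of their differences passed. With the block in limma both rose in saline retinas at 24 h relative to 2 h, 1452526_a_at by 0.81 (adjusted p = 3.32e-06) and 1425960_s_at by 1.50 (7.26e-06), and at 7 d relative to 2 h by 0.83 (3.74e-06) and 1.49 (1.19e-05). In INS37217 retinas 1452526_a_at rose with the block by 0.30 at 24 h (0.0362) and by 0.43 at 7 d (0.00411), and 1425960_s_at by 0.76 at 7 d (0.00965). INS37217 retinas at 2 h were above saline retinas by 0.48 for 1452526_a_at (limma adjusted p = 1, and 0.0122 with the block) and by 0.68 for 1425960_s_at (1, and 0.0955). On replicates 2 and 3 alone 1452526_a_at did not pass there (limma adjusted p = 0.0722, and 0.0646 with the block), and 1425960_s_at did, by 0.66 (0.0266, and 0.0151).

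Beta-actin, lens and erythrocyte measures also set the saline 2 h arrays apart. The pigment epithelium markers had their lowest mean in the INS37217 2 h group instead. The 3′ probe set of the beta-actin control exceeded its 5′ probe set by 0.75 ± 0.04 in INS37217 retinas and 1.04 ± 0.09 in saline retinas at 2 h (log2, mean ± SD, n = 3 each), and by group means of 0.60 to 0.65 later. For the Gapdh control this difference was -0.16 ± 0.14 in INS37217 retinas and -0.01 ± 0.07 in saline retinas at 2 h, with overlapping ranges. Its later group means were -0.34 to -0.25. The gap between the Gad1 probe sets, 1416561_at minus 1416562_at, was 0.46 ± 0.43 in INS37217 retinas and 0.96 ± 0.13 in saline retinas at 2 h, against means of 0.08 to 0.31 later. That between 1419271_at and 1452526_a_at of Pax6 was 1.20 ± 0.14 in INS37217 retinas and 1.70 ± 0.19 in saline retinas at 2 h, against means of 0.86 to 1.16 later. Both gaps contain the low saline 2 h values of 1416562_at and 1452526_a_at given above, so they are no separate measure of these arrays. Lens markers, 8 of 10 measured and none at 0, summed on the linear scale to 48664 to 50214 in INS37217 retinas and 36032 to 38734 in saline retinas at 2 h, and to 47707 to 57151 later. Of these 8 lens markers 3 passed as higher in INS37217 than in saline retinas at 2 h, as did 0.0807% of all genes. In saline retinas 7 rose at 24 h, as did 4.01% of all genes. Erythrocyte markers, 3 of 4 measured and none at 0, summed to 218 to 288 in INS37217 retinas and 489 to 604 in saline retinas at 2 h, and to 110 to 245 later. Pigment epithelium markers, 7 of 8 measured and none at 0, summed to 2665 to 3737 in INS37217 retinas at 2 h. In saline retinas at 2 h they summed to 3313 to 4429, and later to 3474 to 8985 over both injections. Their mean was 8.03 in INS37217 retinas and 8.31 in saline retinas at 2 h, against 8.29 and 8.40 at 24 h. At 2 h 2 of the 7 passed as lower in INS37217 retinas, as did 0.0403% of all genes. The part of RNA quality or of lens, blood or pigment cell RNA in the values of Gad1, Gad2, Pax6 and Lhx1 at 2 h was not tested.

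**Figure D2:**
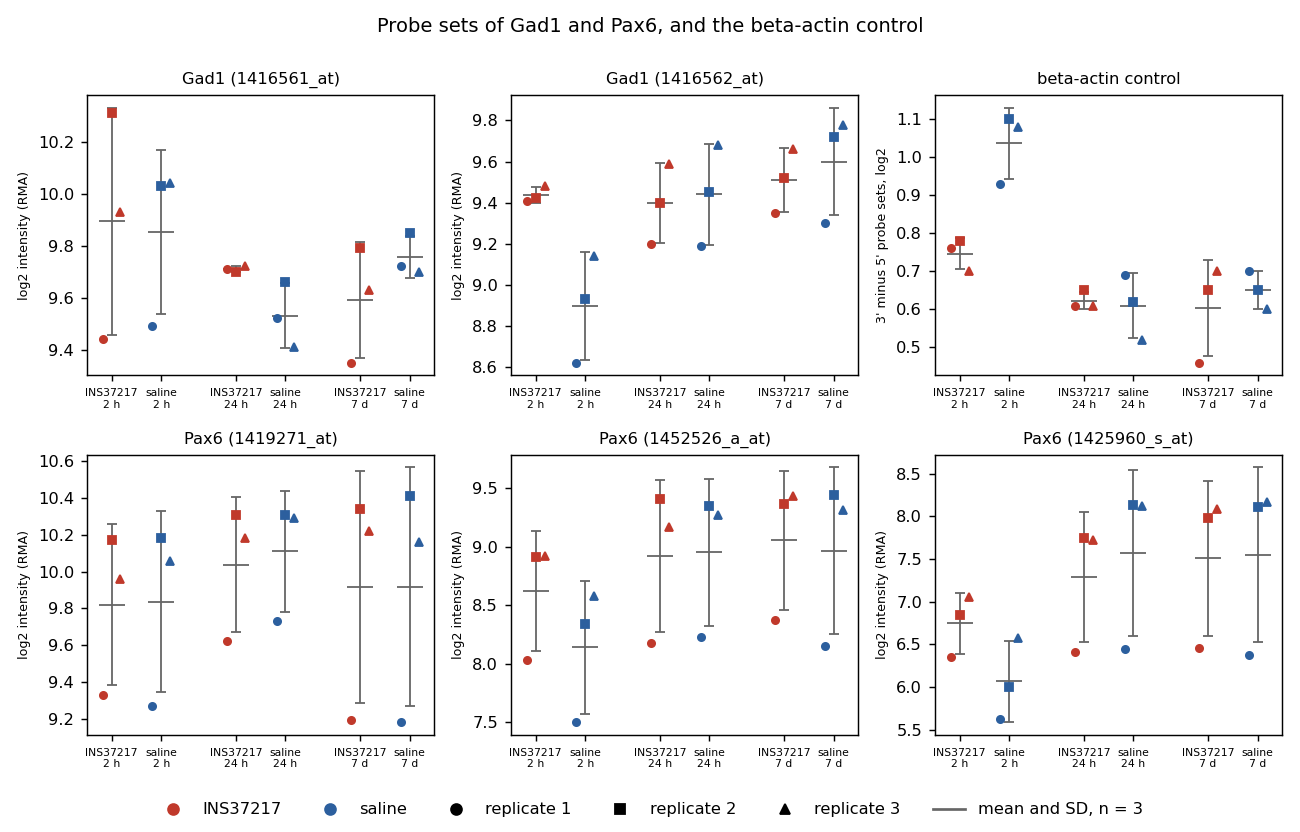
Log2 intensity of both Gad1 probe sets and of the 3 brighter Pax6 probe sets on all 18 arrays, and the 3′ minus 5′ difference of the beta-actin control on the same arrays (points by array, mean and SD of n = 3). Gad1 1416562_at and Pax6 1452526_a_at and 1425960_s_at have their lowest group mean in saline retinas at 2 h, where beta-actin has its highest, while Gad1 1416561_at and Pax6 1419271_at do not.

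The effect of INS37217 was then compared over the 3 times. At 2 h 4 of the 9 genes were higher and 5 lower in INS37217 retinas, with a median difference of -0.01 against 0.00 over all genes, and 0.121% of all genes passed. At 24 h 3 were higher and 6 lower, with a median of -0.07 against -0.01, and 0.137% of all genes passed. At 7 d 8 were lower, with a median of -0.17 against -0.02, and again 0.137% of all genes passed. In each case 0 of the 9 members passed in limma, also with the block, where 1.07%, 1.03% and 0.718% of all genes did. At an unadjusted p under 0.05, 1 member passed at 2 h (Gad2, with a difference of 0.39 ± 0.16), 0 at 24 h and 0 at 7 d, against 2.88%, 3.41% and 2.28% of all genes.

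The differences at 7 d were -0.23 ± 0.16 for Gad2, -0.23 ± 0.13 for Slc32a1, -0.21 ± 0.30 for Calb1, -0.20 ± 0.16 for Lhx1, -0.17 ± 0.19 for Gad1, -0.17 ± 0.11 for Slc6a9, -0.16 ± 0.14 for Calb2, -0.11 ± 0.15 for Tfap2b and 0.00 ± 0.37 for Pax6. None of the 95% intervals excluded 0. That of Slc32a1, for example, ran from -0.50 to 0.05, and that of Calb1 from -0.84 to 0.42. The ranges were apart for Slc32a1 and Slc6a9, 2 of 9 members, against 1.82% of all genes lower with ranges apart. Within each of the 3 replicate numbers the INS37217 array was lower for 7 of the 9 members, all but Pax6 and Tfap2b, as it was for 18.9% of all genes. The genes were chosen with these data known, so the counts describe the 9 genes and are no test of them as a group.

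**Figure D3:**
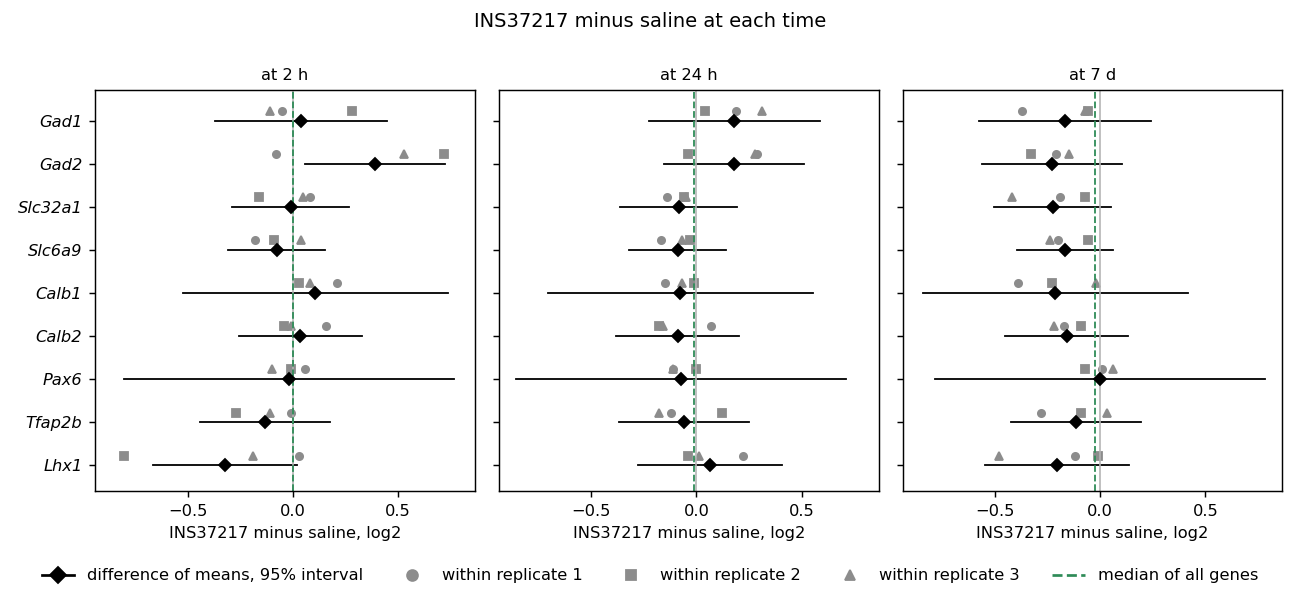
INS37217 minus saline on the log2 scale for the 9 genes at 2 h, 24 h and 7 d (diamonds with 95% intervals from limma, n = 3 arrays a group, and in grey the difference within each replicate number). The dashed line is the median of all 12393 genes. At 7 d 8 diamonds lie left of 0, from -0.23 to -0.11, and every interval includes 0.

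The mean over the 9 genes was 8.44 in INS37217 retinas and 8.60 in saline retinas at 7 d. By replicate number it was 8.21, 8.60 and 8.51 in INS37217 retinas, against 8.42, 8.71 and 8.68 in saline retinas, lower under INS37217 within each number but overlapping between the groups. At 2 h the mean was 8.61 in both, and at 24 h it was 8.42 in INS37217 retinas and 8.43 in saline retinas. The INS37217 arrays of 7 d also differed in other cells. All 12 microglia and macrophage markers were measured, and on the linear scale they summed to 4514 to 5581 in INS37217 retinas at 7 d, against 3056 to 3807 in saline retinas. The 8 fibroblast markers summed to 1786 to 2399 in INS37217 retinas, against 1093 to 1444 in saline retinas. No marker of either list was at 0. Their part in the lower values of the 9 genes was not tested. The mean of the bipolar cell markers, 6 of 9 measured, was 8.91 in INS37217 retinas and 8.94 in saline retinas at 7 d, and that of the rod markers, 8 of 10 measured, 12.32 and 12.37.

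Whether the effect of INS37217 differed between times was tested as an interaction. Of the 9 genes 0 passed in each of the 3 interactions, with or without the block. Without it 0.0484% of all genes passed for 24 h against 2 h, 0.0484% for 7 d against 24 h and 0.0807% for 7 d against 2 h, and with it 0.871%, 0.29% and 0.662%. At an unadjusted p under 0.05, 0, 0 and 1 of the 9 members passed in these comparisons, against 2.12%, 1.86% and 2.33% of all genes.

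Time after the injection was compared within each injection, and comparisons with 2 h share the 2 h arrays. At 24 h relative to 2 h the median difference of the 9 genes was -0.23 in INS37217 retinas and -0.19 in saline retinas, against -0.06 and -0.05 over all genes. In each injection 7 of 9 members were lower, all but Gad2 and Pax6, as were 59.1% of all genes in INS37217 retinas and 57.7% in saline retinas. In INS37217 retinas 0 members passed, against 7.51% of all genes, and at an unadjusted p under 0.05 1 did (Lhx1), against 17.4%. With the block 2 fell, Calb1 and Lhx1, where 22.9% of all genes passed. In saline retinas 1 fell, and 3 members passed at an unadjusted p under 0.05, against 18.4% of all genes. With the block 3 fell, Lhx1, Calb1 and Tfap2b, where 28.2% of all genes passed and 14% fell.

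At 7 d relative to 24 h 5 members were higher and 4 lower in INS37217 retinas, with a median of 0.00, the same as over all genes, and 0 passed against 2.54% of all genes, with the block 0 against 8.54%, and at an unadjusted p under 0.05 0 against 9.09%. In saline retinas 8 of 9 were higher, with a median of 0.22 against 0.02 over all genes, and 0 passed against 1.63%. At an unadjusted p under 0.05 1 passed (Gad2), against 9.21%. With the block 1 member rose, Calb1, against 8.08% of all genes that passed. Within each replicate number 7 of the 9 were higher in saline retinas, as were 20.7% of all genes. At 7 d relative to 2 h the medians were -0.23 in INS37217 retinas and -0.04 in saline retinas, against -0.05 and -0.02 over all genes. In INS37217 retinas 0 members passed, against 5.65% of all genes, 0 with the block, against 18.6%, and 1 at an unadjusted p under 0.05 (Slc32a1), against 15.7%. In saline retinas 2 members, Gad2 and Lhx1, passed at an unadjusted p under 0.05, against 15.5% of all genes.

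**Figure D4:**
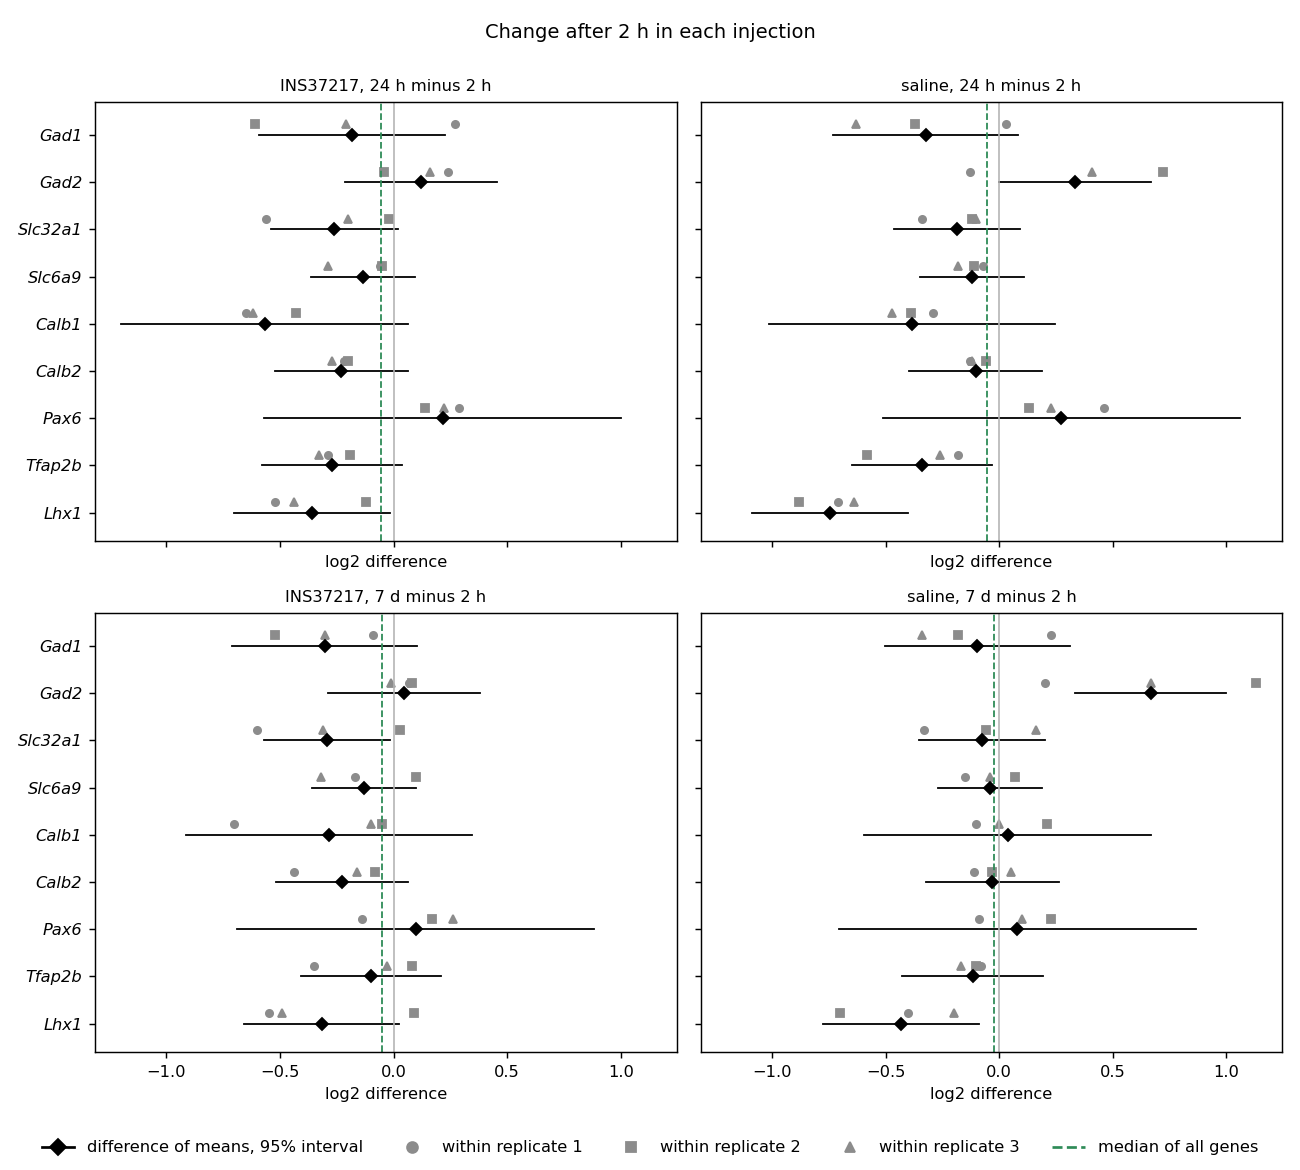
Log2 difference of the 9 genes at 24 h and at 7 d relative to 2 h, in INS37217 and in saline retinas (diamonds with 95% intervals from limma, n = 3 arrays a group, and in grey the difference within each replicate number). The dashed line is the median of all genes. Lhx1 in saline retinas at 24 h and Gad2 in saline retinas at 7 d are the differences that passed at an adjusted p under 0.05.

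Markers of other retinal cells were also lower at 24 h. The mean of the 6 bipolar cell markers over the 3 times was 8.78, 8.45 and 8.91 in INS37217 retinas, against 8.88, 8.59 and 8.94 in saline retinas. At 24 h relative to 2 h 2 of the 6 fell in INS37217 retinas and 0 in saline retinas, and with the block 4 and 2 fell. Of all genes 3.89% fell there in INS37217 retinas and 3.2% in saline retinas, and with the block 11.9% and 14%. The mean of the 10 Mueller glia markers over the 3 times was 9.84, 9.33 and 10.25 in INS37217 retinas, against 9.78, 9.62 and 10.25 in saline retinas, with 5 and 4 of the 10 falling at 24 h. Of 8 rod markers measured, 6 fell in INS37217 retinas and 4 in saline retinas relative to 2 h, and of 7 cone markers 5 and 4 fell. Of 12 microglia and macrophage markers 6 rose in INS37217 retinas and 5 in saline retinas at 24 h, where 3.62% and 4.01% of all genes rose. The ganglion cell markers, 5 of 8 measured, had a median difference of -0.20 in INS37217 retinas and -0.21 in saline retinas. Without the block 0 of them passed, against 7.51% and 7.21% of all genes. With it 2 passed in each injection, against 22.9% and 28.2%. How far a shift in the make-up of the tissue enters the values of the 9 genes was not tested.

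The 5 lists of other genes of these cells gave a wider view: GABA and glycine handling, their receptor subunits, acetylcholine, dopamine and peptide amacrine cells, further transcription factors, and structure and junctions. Of the 65 genes listed, 49 were measured. Between INS37217 and saline retinas 0 of the 49 passed at 2 h, 24 h or 7 d, against 0.121%, 0.137% and 0.137% of all genes, and 0 with the block. At 7 d 35 of the 49 were lower and 13 higher in INS37217 retinas, with a median of -0.05 against -0.02 over all genes, of which 58.2% were lower. At an unadjusted p under 0.05, 2 of them passed at 2 h, 0 at 24 h and 3 at 7 d, against 2.88%, 3.41% and 2.28% of all genes.

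The list medians at 7 d were -0.06 for GABA and glycine handling (6 genes), -0.04 for receptor subunits (9), -0.05 for acetylcholine, dopamine and peptide cells (11), -0.05 for transcription factors (14) and -0.18 for structure and junctions (9). The largest differences in each list, none of which passed, were as follows. Gphn, the scaffold of inhibitory synapses, differed by -0.20 ± 0.36, and Abat, which breaks GABA down, by -0.14 ± 0.47. The glycine receptor subunit Glrb differed by -0.29 ± 0.34 and the GABA receptor subunit Gabra2 by -0.26 ± 0.24. The helix-loop-helix factor Ebf3 differed by -0.35 ± 0.35 and Isl1, which is kept on in cholinergic amacrine cells, by -0.17 ± 0.11. The neurofilament gene Nefm differed by -0.38 ± 0.24.

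Gja10, a connexin of mouse horizontal cells, read 5.43, 5.13 and 5.30 in INS37217 retinas at 7 d, against 5.48, 5.66 and 5.63 in saline retinas. All 3 INS37217 values lay below the saline ones, a difference of -0.30 ± 0.14. The peptide gene Vip, of a class of amacrine cells, read 6.78, 6.66 and 6.59, against 6.91, 6.98 and 6.94, a difference of -0.27 ± 0.12 with ranges apart. Penk went the other way and read 7.94, 7.87 and 8.03 in INS37217 retinas, against 7.58, 7.58 and 7.79 in saline retinas, 0.30 ± 0.11 higher with ranges apart. Each of these 3 had an adjusted p of 1, and of all genes 1.82% were lower and 2.39% higher with ranges apart.

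A few of these genes changed with time, at shares given below beside those over all genes. Penk, which encodes the enkephalin precursor, fell in INS37217 retinas by 0.64 ± 0.11 at 24 h (limma adjusted p = 0.00193) and by 0.58 ± 0.11 at 7 d (0.00525), and in saline retinas by 0.41 ± 0.11 at 24 h (0.0371) and 0.79 ± 0.11 at 7 d (0.000458), all relative to 2 h. The ranges were apart in all 4. Its group means over 2 h, 24 h and 7 d were 8.53, 7.89 and 7.95 in INS37217 retinas, against 8.44, 8.03 and 7.65 in saline retinas. The difference at 7 d relative to 24 h differed between the injections by 0.44 ± 0.16, which did not pass (limma adjusted p = 1, and 0.373 with the block).

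Dab1, the adaptor of the reelin pathway found in AII amacrine cells, fell at 24 h relative to 2 h by 0.61 ± 0.14 in INS37217 retinas (limma adjusted p = 0.0104) and by 0.50 ± 0.14 in saline retinas (0.0347). Its means over the 3 times were 7.90, 7.29 and 7.72 in INS37217 retinas, against 8.03, 7.53 and 7.72 in saline retinas. Tac1, which encodes the precursor of substance P, fell at 7 d relative to 24 h by 0.57 ± 0.13 in INS37217 retinas (limma adjusted p = 0.034). Of all genes 2.54% passed in that comparison and 1.46% fell. The 3 arrays of Tac1 read 7.99, 8.22 and 8.10 at 7 d, against 8.66, 8.94 and 8.43 at 24 h. The GABA receptor subunit Gabrb2 rose in saline retinas at 7 d relative to 2 h by 0.62 ± 0.17 (limma adjusted p = 0.0477), with 6.14, 5.95 and 6.26 at 7 d against 5.80, 5.32 and 5.36 at 2 h. It is the only gene of the 49 that rose in a comparison without the block.

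In all, without the block 0 of the 49 rose and 2 fell at 24 h relative to 2 h in each injection, 0 rose and 1 fell in INS37217 retinas at 7 d relative to 2 h, and 1 rose and 1 fell in saline retinas. Of all genes 7.51% passed in INS37217 and 7.21% in saline retinas at 24 h, and 5.65% and 5.13% at 7 d. With the block 1 rose (Tac1) and 11 fell in INS37217 retinas at 24 h, among them Isl1, Neurod2, Ebf1 and Ebf3, where 22.9% of all genes passed. In saline retinas 1 rose (Gabrb2) and 14 fell, among them Tfap2a, Onecut1, Neurod2 and Nr4a2, where 28.2% of all genes passed. At 7 d relative to 24 h 4 rose and 1 fell with the block in INS37217 retinas, and 4 rose and 2 fell in saline retinas, where 8.54% and 8.08% of all genes passed. Isl1 rose in both, and Gja10 in saline retinas. Onecut1, a factor of horizontal cells, and Tfap2a, the AP-2 relative of Tfap2b, passed in saline retinas with the block and not without it, as did Tfap2b.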

How the data were processed

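RNA of 18 pools of detached mouse retina was labelled and hybridised to Affymetrix arrays. The values are log2 intensities that the authors made with RMA, per the submitters' processing notes, and deposited to 2 decimals. RMA is a background correction, quantile normalization and summary of probes, and its version is not given. Of 22690 probe sets 64 array controls were left out and 22626 tested. The platform annotation gave 20380 of them 1 gene, 691 several and 1555 none, and a gene was read by its probe set of highest mean (12393 genes).

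Groups and replicate numbers came from the titles. The test was limma 3.58.1 in R 4.3.3 on the means of 6 groups over 18 arrays with 12 residual degrees of freedom, Benjamini-Hochberg over all probe sets, at 0.05. The 3 arrays a group limit the precision. After group means were removed, same-numbered arrays of different groups correlated at 0.426 to 0.921 (45 pairs). Arrays of replicate 1 correlated with those of 2 or 3 at -0.847 to -0.501, and 2 with 3 at 0.363 to 0.725. These values set replicate 1 apart. They do not show that arrays of replicate 2, or of replicate 3, pair with each other, since same-numbered pairs overlap with pairs of 2 with 3. A fit with the number as a block was made beside the main one, by the data and not by a label, so the pairing it assumes is not established. The steps were tested on simulated data with known changes for INS37217 minus saline at 7 d. Without the block the test found 8 of 67 changes of 0.5 on the log2 scale and 37 of 67 of 1. It found 65 of 66 changes of 2, with 0 false calls among 110. With the block it found 30 of 67, 66 of 67 and 66 of 66, with 12 false calls among 174. Most changes of 0.5 were missed in either fit, so not passing does not by itself show that a gene was unchanged.

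The 9 genes and all lists were chosen with earlier results of these data known. The text names all 9 with each of their probe sets, up to 4 genes of each list that passed in a comparison or else up to 2 of largest difference, and the 5 genes with group means nearest those of the member that varied most. Promoter windows are from RefSeq (GRCm38.p6), matched by symbol for 7 of the 9 genes. The alternatives were repeated quantile normalization, equal array medians, a filter on low levels, the mean of a gene's probe sets, a trended robust variance, fits on the compared arrays or on replicates 2 and 3, the block, and leaving out each array.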

Additional observations from a re-analysis of the deposited data

Results flagged for a closer look

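The effect of INS37217 on Gad1 probe set 1416562_at differed between times when the replicate number was in the model. INS37217 minus saline was 0.54 at 2 h, and it was lower at 24 h by a difference of -0.58 (limma adjusted p = 0.039) and at 7 d by a difference of -0.63 (limma adjusted p = 0.0238). Without the replicate number the adjusted p of both was 1. On replicates 2 and 3 alone neither passed, at 24 h (limma adjusted p = 0.358, and 0.183 with the block) or at 7 d (0.148, and 0.0655). On those arrays Pax6 probe set 1425960_s_at passed for 24 h, with a difference of -1.05 (limma adjusted p = 0.0183, and 0.0105 with the block). The brighter probe set of Gad1, 1416561_at, did not pass in either of these comparisons. The part of the 3′ to 5′ signal of the saline 2 h arrays in this difference was not tested.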

How the results depend on the processing

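The count of the 9 genes that passed depended mostly on the replicate number. For saline at 24 h relative to 2 h it was 1 (Lhx1), and it was 2 with repeated quantile normalization, 0 with probe sets of low level filtered out (mean under the median), 3 with the replicate block, and 5 on replicates 2 and 3 alone, with or without the block. Over the whole array 1714 of 22626 probe sets passed there, 2017 with that normalization and 1422 of 11312 with the filter. With the block 6564 passed, on replicates 2 and 3 6100, and there with the block 6622. The 5 genes on replicates 2 and 3 did not move alike: Gad2 rose by 0.565 (limma adjusted p = 0.00243), while Gad1, Calb1, Tfap2b and Lhx1 fell. The 2 Gad1 probe sets passed in opposite directions there, 1416561_at by -0.50 (limma adjusted p = 0.00901) and 1416562_at by 0.53 (0.00339). For saline at 7 d relative to 2 h the count of the 9 genes was 1 (Gad2), and it was 0 with that filter, 0 where the 2 groups alone were fitted, 2 with the block, and 2 on replicates 2 and 3, with or without the block. Over the whole array 1231 probe sets passed there, 1020 with the filter and 315 with the 2 groups alone. With the block 4946 passed, on replicates 2 and 3 5444, and there with the block 5901. The filter on low levels left 7 of the 9 genes to test, without Gad2 and Lhx1. For saline at 7 d relative to 24 h the count was 0, and 1 (Calb1) with the block, on replicates 2 and 3, and there with the block. Over the whole array 297 probe sets passed, and 1668, 1002 and 1179 in these 3 settings. For INS37217 at 24 h relative to 2 h the count of the 9 genes was 0, and 2 in each of these 3 settings, where 5002, 5167 and 5656 probe sets passed instead of 1476. On replicates 2 and 3, with or without the block, 1 gene instead of 0 passed for INS37217 minus saline at 2 h (Gad2), for INS37217 at 7 d relative to 2 h (Gad1) and for the effect at 7 d minus the effect at 2 h (Gad2, -0.865, limma adjusted p = 0.021 without the block). Over the whole array these 3 comparisons had 29, 1110 and 20 probe sets in the main fit, and 304, 5281 and 247 on replicates 2 and 3. With the block on those arrays they had 407, 5895 and 310. With that block 1 gene passed for INS37217 at 7 d relative to 24 h (Calb1), where 1575 probe sets passed instead of 501. The cause of these changes was not tested, apart from the genes the filter removed and the fewer arrays. Apart from the calls given in the report and those of Gad1 1416562_at above, the block changed no call of the 18 probe sets.

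Leaving out single arrays, the count ranged from 0 to 1 for saline at 24 h relative to 2 h, with 0 without saline 2 h replicate 2, and from 0 to 1 for saline at 7 d relative to 2 h, with 0 in 4 of 18 cases. It stayed at 0 in the other 10 comparisons. Of the medians of the 9 genes, all 108 values in other settings and all 216 with an array left out moved by less than the spread between replicates. That spread was the SD within groups of the median level of the 9 genes on an array, which was Calb1's, at 0.397. It exceeds the median differences themselves, so a median could fall to 0 or change sign and still count as unmoved. With an array left out, that of INS37217 minus saline ranged from -0.24 to -0.13 at 7 d, and at 24 h from -0.08 to 0.03, turning sign without saline 24 h replicate 2. That of INS37217 at 7 d relative to 2 h (-0.23) was -0.12 without INS37217 7 d replicate 1, and that of saline (-0.04) was -0.15 without saline 2 h replicate 1. No value changed sign where it had passed. The number of probe sets over the whole array that passed moved by over 1.5 times in 55 combinations of setting and comparison and by less in 41. It did so in 50 of 216 cases with an array left out, for example 8 to 36 of a main 29 for INS37217 minus saline at 2 h, 952 to 1986 of 1714 for saline at 24 h relative to 2 h and 609 to 1553 of 1231 at 7 d, so the shares of all genes also rest on single arrays.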
